A study of Mus musculus with 9 samples.

Results

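The 8 genes described here encode surface proteins that are used to sort neural stem and progenitor cells: Prom1 (CD133), Cd24a (CD24), Cd9, Cd81, Cd44, Itga6 (CD49f), Itgb1 (CD29) and Vcam1. They were taken by symbol from a table of 18329 genes, and all 8 passed the filter on low values that left 16143 genes. The cells came from the TVZ, the ventricular zone of the third ventricle in the brain, and were labelled as neuroglial progenitors. They were taken on postnatal day 1 from untreated mice on a C57/BL6 background. All mice carried Nestin-CFPnuc, a transgene that places a cyan fluorescent protein of the nucleus (CFP) under the promoter of Nestin, so CFP reports that promoter in the transgene and not the Nestin protein itself. Flow sorting on CFP and on CD133 gave 3 populations with 3 RNA-seq libraries each: CD133+Nestin+, Nestin+ and CD133+. Whether the populations named for 1 marker were negative for the second, and how many animals entered a library, is not in the labels. Each library carries a sort number from 1 to 3 that equals a passage number, and this number names the replicates below.

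CD133 (prominin-1) is a membrane protein that spans the membrane several times and sits in protrusions such as cilia and microvilli, and in the ventricular wall it is found on radial glia, ependymal cells and some stem cells. CD24 is a short, heavily glycosylated protein held in the membrane by a lipid anchor, and in the postnatal brain it is used to tell neuroblasts and ependymal cells from stem cells. CD9 and CD81 are tetraspanins, which gather integrins and other partners into membrane microdomains. ITGA6 and ITGB1 pair as an integrin receptor for laminin, CD44 binds hyaluronan, and VCAM1 is an adhesion protein of the immunoglobulin family that is bound by integrins.

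With the values scaled as deposited and no block for the sort number, Cd24a was the only gene of the set outside the sort that passed the test in a comparison of the populations, and its reading frame is shown because it is so short. The coding sequence of the transcript with a consensus coding sequence (CCDS) entry runs over 2 coding exons between positions 43579254 and 43582765 on the plus strand of chromosome 10 (GENCODE M21, GRCm38, the same build as mm10) and holds 231 bases, or 76 codons before the stop. A second annotated coding transcript has a longer frame of 297 bases, or 98 codons, which is not shown. Capitals mark the start and the stop codon.
Cd24a coding sequence: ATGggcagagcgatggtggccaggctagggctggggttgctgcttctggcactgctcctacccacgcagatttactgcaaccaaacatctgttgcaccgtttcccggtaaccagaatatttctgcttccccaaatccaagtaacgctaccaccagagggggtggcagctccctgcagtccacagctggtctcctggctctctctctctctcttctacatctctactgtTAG

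The promoter windows of Cd9, Cd81 and Itgb1 are shown because these genes were higher in Nestin+ than in CD133+ libraries in each of the 3 sorts. The windows are the 250 bases before the RefSeq start in GRCm38.p6, read 5′ to 3′ along the gene, and 5 of the 8 genes had such a window. Capitals mark GGGCGG, a GC box, which was searched on both strands together with CCAAT and TATAAA.
Cd9, chr6:125494761-125495010, minus strand: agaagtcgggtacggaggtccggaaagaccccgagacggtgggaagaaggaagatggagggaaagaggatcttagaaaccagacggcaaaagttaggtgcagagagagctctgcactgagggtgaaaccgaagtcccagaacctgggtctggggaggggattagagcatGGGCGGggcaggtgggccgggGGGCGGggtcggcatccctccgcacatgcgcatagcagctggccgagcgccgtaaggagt
Cd81, chr7:143052500-143052749, plus strand: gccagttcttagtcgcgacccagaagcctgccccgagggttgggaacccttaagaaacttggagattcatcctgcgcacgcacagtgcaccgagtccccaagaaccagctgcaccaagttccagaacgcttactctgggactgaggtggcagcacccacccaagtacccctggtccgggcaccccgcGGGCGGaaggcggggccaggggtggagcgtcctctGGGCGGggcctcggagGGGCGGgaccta
Itgb1, chr8:128685404-128685653, plus strand: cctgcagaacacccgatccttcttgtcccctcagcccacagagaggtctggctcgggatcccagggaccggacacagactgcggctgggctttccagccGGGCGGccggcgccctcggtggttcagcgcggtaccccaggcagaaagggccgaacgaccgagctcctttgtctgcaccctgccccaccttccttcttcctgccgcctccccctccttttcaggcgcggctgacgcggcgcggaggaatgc

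The Cd9 window held 2 GC boxes, the Cd81 window 3 and the Itgb1 window 1, and none of the 3 windows held CCAAT or TATAAA. Among 32851 RefSeq windows of the same length, 32.7% held GGGCGG, 33.8% held CCAAT and 12.4% held TATAAA. The GC content was 61.6% in the Cd9, 65.6% in the Cd81 and 68% in the Itgb1 window. A match is a description of these letters only.

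Both sort markers followed the labels. Prom1 stood at 142, 116 and 181 CPM (reads scaled to the library total, the unit inferred for the deposited values) in CD133+Nestin+, at 58.1, 39.3 and 55.8 in Nestin+ and at 146, 182 and 179 in CD133+ libraries, in the order of sorts 1 to 3. The Nestin+ libraries were the lowest and did not overlap with the others, yet every Nestin+ library held Prom1 transcripts. Nes, which encodes Nestin, stood at 210, 172 and 212 CPM in CD133+Nestin+, at 195, 157 and 166 in Nestin+ and at 39.5, 56.9 and 57.3 in CD133+ libraries. These differences check the labels and were not tested. Of the libraries as a whole, CD133+Nestin+ replicate 2 stood apart at 108 on the second principal component, against -57.1 to 19.3 for the other libraries. In each library 1 read was worth 0.0286 to 0.0344 CPM, and the table's genes held 65.9% to 87.6% of the CPM total.

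Per kilobase of merged exons, a rough scale for comparing genes, the 8 genes spanned a wide range. Merged exons can be longer than the transcript in use, which understates the level. They held 7.175 kb for Prom1 and 9.025 kb for Itga6, against 3966 and 4156 bases in the transcript with the longest coding sequence. Over all 9 libraries Cd81 averaged 604 ± 191 CPM per kb (SD) and Cd9 294 ± 104, followed by Cd24a at 63 ± 35.8, Itgb1 at 44.3 ± 11.2, Vcam1 at 41.1 ± 21.7 and Prom1 at 17 ± 8.06. Cd44 at 4.76 ± 1.63 and Itga6 at 3.43 ± 1.16 CPM per kb were the lowest. The neighbours Cd24a, Itgb1 and Vcam1 lay within their spread over libraries, as did Cd44 and Itga6. In that spread over libraries Vcam1 varied most, its highest library being 6.15-fold above its lowest, and Itgb1 least, at 2.27-fold. The Cd24a order depended on the population: it averaged 69.5 ± 6.08 CPM per kb in CD133+Nestin+, 28 ± 2.77 in Nestin+ and 91.7 ± 44.1 in CD133+ libraries (SD, n = 3 each), against 40.9 ± 9.38, 55.4 ± 7.74 and 36.6 ± 8.18 for Itgb1 in the same 3 populations.

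**Figure D1:**
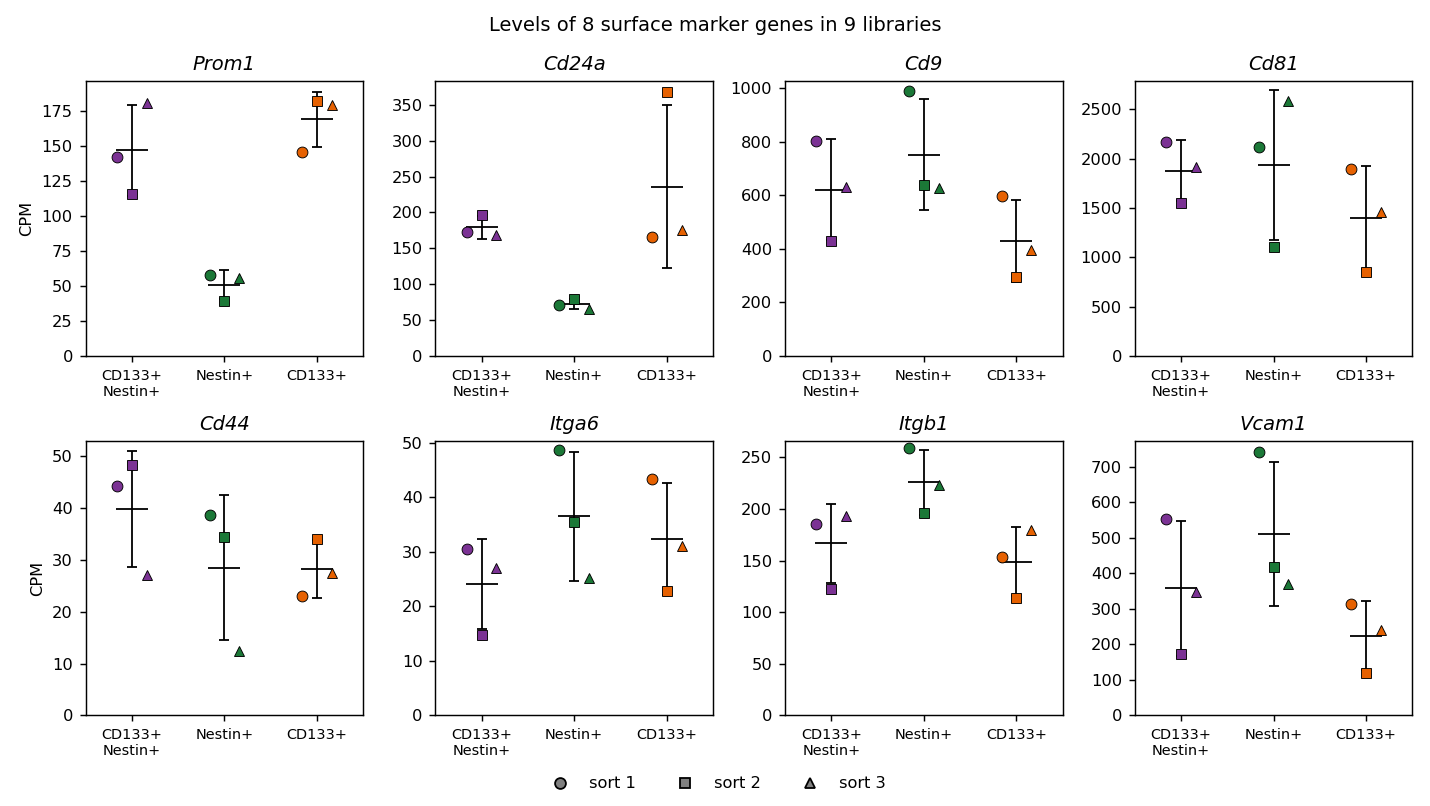
Level in CPM of each of the 8 surface marker genes in the 9 libraries, with CD133+Nestin+, Nestin+ and CD133+ from left to right. Points are single libraries, shaped by sort number, and bars give the mean and SD of 3 libraries. Cd24a and Prom1 are lowest in the 3 Nestin+ libraries, whereas Cd9, Itgb1 and Vcam1 are higher in the Nestin+ than in the CD133+ libraries without overlap.

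Cd24a fell in Nestin+ cells relative to CD133+ cells. It stood at 70.7, 80 and 66 CPM in Nestin+ libraries, against 166, 368 and 176 CPM in CD133+ libraries. Every Nestin+ library was below every CD133+ library, and CD133+ replicate 2 was far above the other 2. The means were 72.2 ± 7.15 and 236 ± 114 CPM (SD, n = 3 each), a log2 change of -1.60 ± 0.31 (SE, on the log2(CPM + 1) scale) with an adjusted p of 0.00611 in limma. The adjusted p ranged from 0.000213 to 0.0308 over the alternative settings, and the change was -1.23 without CD133+ replicate 2. Within sorts 1, 2 and 3 the differences were -1.22, -2.19 and -1.40. By exact permutation over the 6 libraries (two-sided) p was 0.1, the smallest that 3 libraries against 3 allow. The ratio of the group means was 0.305 in the authors' deposited table, with a false discovery rate of 0.00836.

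Cd24a was thus 1 of 7 genes outside the sort that passed in this comparison, where 11.9% of all genes were called, 2.45% as higher and 9.42% as lower. With the sort number as a block 4 of the 7 passed, Cd24a lower and Cd9, Itgb1 and Vcam1 higher, against 19.2% of all genes called, 6.06% as higher and 13.1% as lower. Groups did not overlap for 4 of the 7, against 33% of all genes. The median log2 difference of the 7 was 0.45, and that of all genes was -0.02.

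Vcam1, the ligand of integrins that is used to mark quiescent stem cells of the ventricular wall, had the largest positive difference. It stood at 743, 417 and 370 CPM in Nestin+ libraries, against 313, 121 and 242 in CD133+ libraries. The lowest Nestin+ library lay above the highest CD133+ library. The difference of 1.21 ± 0.48 (log2, SE) had an adjusted p of 0.148 in limma without a block and 0.00751 with the sort number as a block, and was 1.24, 1.78 and 0.61 within sorts 1, 2 and 3. The authors' deposited table gave a ratio of 2.26 with a false discovery rate of 0.185.

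Cd9, a tetraspanin proposed as a surface marker of neural stem cells, stood at 991, 640 and 627 CPM in Nestin+ libraries, against 597, 294 and 396 in CD133+ libraries. The groups did not overlap, and the margin between Nestin+ replicate 3 and CD133+ replicate 1 was small. The log2 difference of 0.84 ± 0.36 had an adjusted p of 0.185 in limma without a block, 0.0113 with the block and 0.0251 after quantile normalization without a block. Itgb1, the common integrin beta subunit, stood at 259, 196 and 223 CPM in Nestin+ libraries, against 154, 114 and 180 in CD133+ libraries, again without overlap. Its log2 difference of 0.61 ± 0.28 had an adjusted p of 0.217 in limma without a block and 0.0383 with the block. Each of these 3 genes had an exact permutation p of 0.1. In the authors' deposited table the false discovery rate was 0.219 for Cd9 and 0.227 for Itgb1.

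Cd81, the second tetraspanin, stood at 2119, 1100 and 2588 CPM in Nestin+ libraries, against 1896, 854 and 1460 in CD133+ libraries. The ranges overlapped widely, although the Nestin+ library was the higher one in each sort, by 0.16, 0.36 and 0.83 (log2). Its difference of 0.45 ± 0.41 had an adjusted p of 0.609 in limma and 0.205 with the block. Itga6, the laminin-binding alpha subunit, stood at 48.7, 35.5 and 25.2 CPM in Nestin+ libraries, against 43.4, 22.9 and 31 in CD133+ libraries, and Cd44, the hyaluronan receptor, at 38.7, 34.4 and 12.5, against 23, 34.1 and 27.5. For both genes the groups overlapped and the sorts differed in sign. Itga6 differed by 0.16 ± 0.36 with an adjusted p of 0.858, and Cd44 by -0.11 ± 0.40 with an adjusted p of 0.916, a difference that was 0.02 after median centring or quantile normalization. In all, 4 of the 7 genes (Cd9, Cd81, Itgb1 and Vcam1) were higher in Nestin+ cells in each of the 3 sorts, against 26% of all genes, and Cd24a alone was lower in each, against 31.7%.

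**Figure D2:**
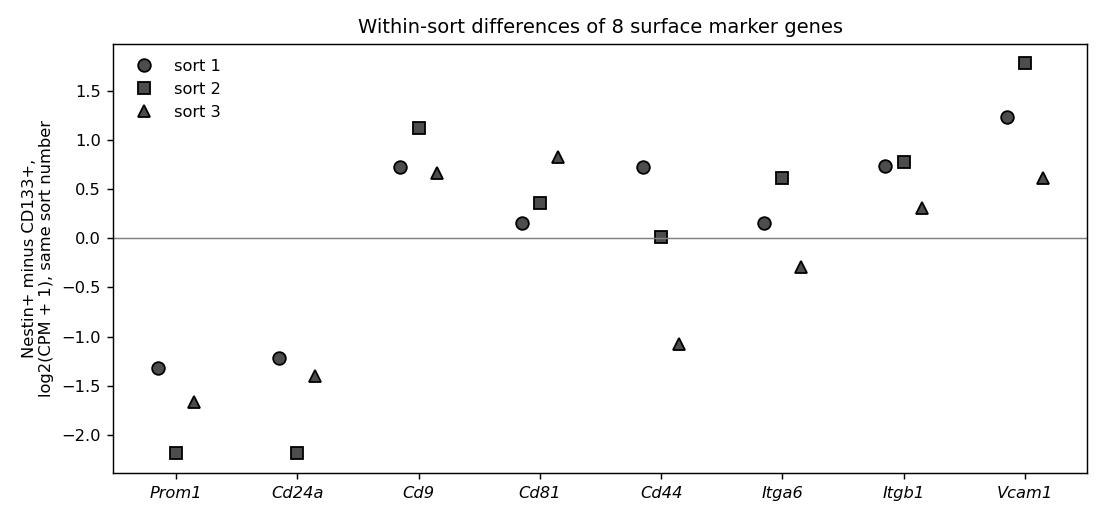
Difference Nestin+ minus CD133+ on the log2(CPM + 1) scale for each of the 8 genes, taken between libraries of the same sort number. Points are the 3 sorts. Cd24a and the sort marker Prom1 lie below 0 in all 3 sorts, Cd9, Cd81, Itgb1 and Vcam1 lie above 0 in all 3, and Cd44 and Itga6 fall on both sides.

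Genes of other cell types moved with the same contrast, and their part in the differences of the surface markers was not tested. In this contrast 9.42% of all genes were called lower and 2.45% higher, or 13.1% and 6.06% with the sort number as a block. The 10 ependymal markers summed to 169 to 211 CPM in Nestin+ libraries, against 1598 to 3417 in CD133+ libraries, and all 10 passed as lower. Sums of the 9 measured microglia and macrophage markers were 35.4 to 102 CPM against 907 to 2630, and 9 of 9 were lower. The 5 endothelial markers measured summed to 15.4 to 25.5 CPM in Nestin+ libraries, against 451 to 887 in CD133+ libraries, with all 5 lower, and 5 of 6 mural and fibroblast markers were lower (sums of 63.9 to 96.1 against 724 to 1453 CPM). Erythroid markers summed to 24.4 to 344 CPM against 783 to 1537, and 5 of 5 were lower, or 3 without CD133+ replicate 2 or 3 or Nestin+ replicate 1 or 3. Markers of oligodendrocyte precursors ran the other way, at 577 to 1067 CPM in Nestin+ libraries against 59.9 to 139 in CD133+ libraries, and 5 of 6 passed as higher, or 3 without CD133+ replicate 2 or Nestin+ replicate 2. Sums of the 7 radial glia markers were 3962 to 7357 CPM against 1180 to 3428, with Hes5 called higher, Pax6 lower and neither without CD133+ replicate 3 or Nestin+ replicate 2, and those of the 6 astrocyte markers 1884 to 3929 against 1021 to 2781 CPM. No astrocyte marker passed without a block, with 1 at an unadjusted p under 0.05 in limma. With the block Gfap, at 48.9 ± 21.6 CPM in Nestin+ against 172 ± 96.4 in CD133+ libraries, was lower (adjusted p 0.0879 without and 0.000508 with the block in limma), while Aldh1l1 (0.00439) and Aldoc (0.0143) were higher. Without CD133+Nestin+ replicate 1 or 2, 1 astrocyte marker passed as lower. The block also added the radial glia marker Fabp7, the neuronal marker Tubb3 and the precursor marker Olig1 as higher (adjusted p 0.00891, 0.00608 and 0.0122 in limma). Of 5 neuronal markers 2 were higher (131 to 184 against 29.5 to 97.4 CPM), and of 3 choroid plexus markers 1 was lower (15.1 to 28.8 against 34.8 to 42.4 CPM). No marker of any list lay under 3 reads in all libraries of a group. In bulk libraries of this kind, fewer cells of a type and less RNA per cell cannot be told apart.

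None of the 7 genes passed between CD133+Nestin+ and CD133+ cells, where 2.42% of all genes were called, 0.297% as higher and 2.12% as lower. With the sort number as a block limma called 0 of the 7 too, against 4.81% of all genes, 1.12% as higher and 3.69% as lower. Of the 7, 0 had an unadjusted p under 0.05 without the block, and 0 had a false discovery rate under 0.05 in the authors' deposited table. The values of the 2 populations overlapped for all 7, while groups did not overlap for 17.5% of all genes. Cd24a stood at 173, 197 and 168 CPM in CD133+Nestin+ libraries, against 166, 368 and 176 in CD133+ libraries. Apart from CD133+ replicate 2, the 2 populations held nearly the same level, and the log2 difference was -0.30 ± 0.31 with all libraries (adjusted p 0.741) and 0.07 without that library.

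Cd9 stood at 803, 428 and 632 CPM in CD133+Nestin+ libraries, against 597, 294 and 396 in CD133+ libraries, a difference of 0.55 ± 0.36 with an adjusted p of 0.593 in limma. Vcam1 stood at 553, 173 and 349 CPM, against 313, 121 and 242, a difference of 0.62 ± 0.48 with an adjusted p of 0.658. Both genes were higher in the double-marker library of every sort, although the populations overlapped. The same held for Cd81, at 2169, 1555 and 1916 CPM against 1896, 854 and 1460, and for Itgb1, at 185, 123 and 193 CPM against 154, 114 and 180. Itga6 ran lower in every sort, at 30.6, 14.7 and 27 CPM in CD133+Nestin+ libraries against 43.4, 22.9 and 31 in CD133+ libraries. Thus 4 of the 7 were higher in each sort, against 18.9% of all genes, and 1 was lower in each, against 24.2%. The differences of Cd81, Cd44, Itga6 and Itgb1 were 0.48, 0.46, -0.43 and 0.15 (log2), with adjusted p-values of 0.682 to 0.854 in limma. In this contrast the ependymal marker sums were 1097 to 1419 CPM in CD133+Nestin+ libraries against 1598 to 3417 in CD133+ libraries with 3 of 10 lower (1 without CD133+ replicate 2 or 3), and 5 of 5 endothelial markers were lower. Microglia and macrophage markers were lower in 9 of 9 cases, but in 3 without CD133+ replicate 1, 1 without CD133+ replicate 3, 5 without CD133+Nestin+ replicate 2 and 4 without CD133+Nestin+ replicate 3. Of 6 mural and fibroblast markers 5 were lower, or 3 without CD133+ replicate 1 or 3, CD133+Nestin+ replicate 1 or Nestin+ replicate 2. Of 5 erythroid markers 4 were lower, but 0 without any 1 of the CD133+ libraries or CD133+Nestin+ replicate 2. The oligodendrocyte precursor marker Gpr17 was higher. No marker of its list was called without any 1 of the CD133+ or Nestin+ libraries or CD133+Nestin+ replicate 2. With the block Gfap was lower (adjusted p 0.0178 in limma) and Sox10 higher (0.0419) in CD133+Nestin+ cells. Of all genes 2.12% were called lower and 0.297% higher there, or 3.69% and 1.12% with the block. The part of these markers was not tested.

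Between CD133+Nestin+ and Nestin+ cells, Cd24a was 1 of 7 genes called, where 3.13% of all genes passed, 2.87% as higher and 0.254% as lower. It stood at 173, 197 and 168 CPM in CD133+Nestin+ libraries, against 70.7, 80 and 66 in Nestin+ libraries. The populations lay far apart, and the difference was nearly the same within sorts 1, 2 and 3, at 1.28, 1.29 and 1.33 (log2). The mean levels were 179 ± 15.7 and 72.2 ± 7.15 CPM (SD, n = 3 each), and the log2 change was 1.30 ± 0.31 with an adjusted p of 0.0479 in limma and 0.00903 with the block. With the block it was again the 1 gene of 7 called, against 6.09% of all genes, 4.97% as higher and 1.12% as lower. Without a block this p is close to the threshold: 8 of the 9 fits that left out 1 library lost the call, and it was kept without CD133+ replicate 2. Over all 9 of these fits the change was 1.23 to 1.38 and the adjusted p 0.00968 to 0.167. The authors' deposited table gave a ratio of 0.403 for Nestin+ over CD133+Nestin+, with a false discovery rate of 0.0546, and 0 of the 7 genes under 0.05. All 10 ependymal markers were higher in CD133+Nestin+ libraries, where they summed to 1097 to 1419 CPM, against 169 to 211 in Nestin+ libraries. Without the block Cldn5 (1 of 5 endothelial markers), Dcn (1 of 6 mural and fibroblast markers) and Folr1 (1 of 3 choroid plexus markers) were higher too. Of 6 oligodendrocyte precursor markers 3 were lower (Pdgfra, Cspg4 and Sox10). Leaving out 1 library gave 0 to 4 lower precursor markers, 0 to 2 higher endothelial markers and 1 higher marker of each other list. With the block Aldoc, Dcx, Snap25 and Gpr17 were also lower in CD133+Nestin+ cells (adjusted p of 0.0405, 0.0253, 0.0386 and 0.00548 in limma). Without Nestin+ replicate 3, 6 of the 10 ependymal markers were called, and the part of these markers in the Cd24a difference was not tested.

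**Figure D3:**
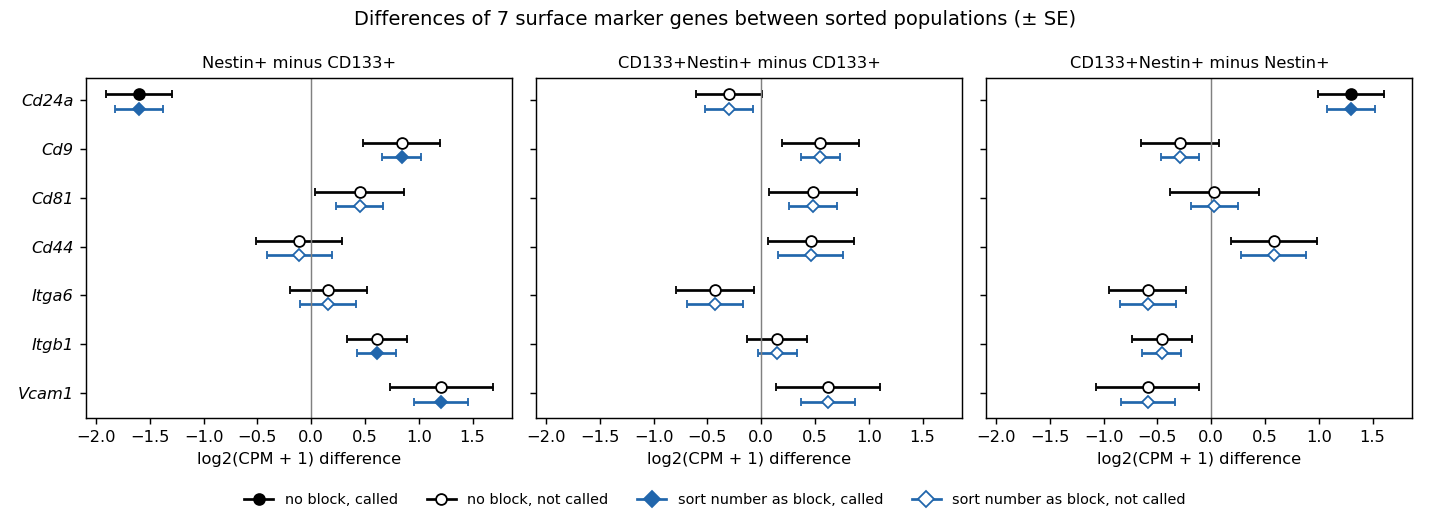
Difference of 7 surface marker genes between the sorted populations on the log2(CPM + 1) scale, with SE, in 3 panels by comparison. Circles give limma without a block and diamonds with the sort number as a block, filled where the adjusted p is under 0.05. Cd24a is called in both comparisons with Nestin+ cells, and Cd9, Itgb1 and Vcam1 are called with the block in Nestin+ minus CD133+.

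The other 6 genes did not pass between CD133+Nestin+ and Nestin+ cells. Itgb1, at 185, 123 and 193 CPM against 259, 196 and 223, was lower without overlap, by -0.46 ± 0.28 (log2) with an adjusted p of 0.562 in limma. Cd24a and Itgb1 were the 2 of 7 whose populations did not overlap, against 17.3% of all genes. Vcam1 had a difference of -0.59 ± 0.48, Itga6 of -0.59 ± 0.36, Cd9 of -0.29 ± 0.36, Cd81 of 0.03 ± 0.41 and Cd44 of 0.58 ± 0.40, with adjusted p-values of 0.558 to 0.986. Cd44 stood at 44.3, 48.3 and 27.2 CPM in CD133+Nestin+ libraries, against 38.7, 34.4 and 12.5 in Nestin+ libraries. It was higher in every sort while the ranges overlapped. In each of the 3 sorts 2 of the 7 (Cd24a and Cd44) were higher, against 21.9% of all genes, and 2 (Itgb1 and Vcam1) were lower, against 20.4%. The median difference of the 7 was -0.29, and that of all genes was -0.04. The 3 comparisons share libraries, so their values are not independent of each other.

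Cd9, Itga6 and Vcam1 were highest in sort 1 in all 3 populations, which 17.7% of all genes were too. Vcam1, for example, stood at 553 CPM in CD133+Nestin+ replicate 1, against 173 and 349 in replicates 2 and 3. Cd81 and Itgb1 were lowest in sort 2 in all 3 populations, like 14.3% of all genes, and Cd24a was highest in sort 2 in all 3, like 7.18% of all genes. The orders of Cd9, Itga6, Vcam1, Cd81 and Itgb1 were the same after each library was rescaled to the sum of the table's genes. The share of the CPM total held by those genes was 87.3% to 87.6% in sort 1, 65.9% to 77.7% in sort 2 and 77.6% to 81% in sort 3, and its part was not tested. Sort and passage number are equal in every library, so they cannot be told apart. With the sort number as a block the SE of Cd9 in Nestin+ minus CD133+ was 0.18, against 0.36 without it, and that of Vcam1 was 0.25 against 0.48.

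The genes most like each surface marker were ranked by Pearson's r over the 9 libraries on the log2(CPM + 1) scale, among 9409 genes averaging at least 10 CPM. These values are descriptions, and the libraries share their sort numbers and scaling. For Prom1 the nearest were Serpinb6b (r = 0.979), Traf3ip2 (0.975) and Efcab10 (0.975). Serpinb6b averaged 25.2 ± 11.8 CPM in CD133+Nestin+, 4.45 ± 1.11 in Nestin+ and 43.6 ± 14.3 in CD133+ libraries. For Cd24a they were Tex26 (0.989), Cfap61 (0.987) and Ttc12 (0.987). Cfap61, a gene of motile cilia, averaged 39.7 ± 1.44 CPM in CD133+Nestin+, 9.14 ± 1.83 in Nestin+ and 51.6 ± 32.4 in CD133+ libraries. Its likeness to Cd24a in the order of the groups follows from its choice by r. Among the 7 other surface markers Cd24a followed Prom1 most closely, with r = 0.872, at place 403 of the 9409 genes compared with Prom1.

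For Vcam1 the nearest genes were Fabp7 (0.986), Kcnip3 (0.980) and Hacd3 (0.980). Fabp7, the brain lipid-binding protein of radial glia, averaged 2280 ± 1356 CPM in CD133+Nestin+, 3849 ± 1862 in Nestin+ and 1325 ± 861 in CD133+ libraries. For Itgb1 they were Ptn (0.988), Id3 (0.988) and Pcdhga8 (0.981), and for Cd9 Klhl5 (0.993), Nat8f1 (0.987) and Sall2 (0.985). Ptn, the secreted growth factor pleiotrophin, averaged 1340 ± 508 CPM in CD133+Nestin+, 2334 ± 496 in Nestin+ and 1103 ± 475 in CD133+ libraries. Cd81 was closest to Ndufv1 (0.970), Pdk2 (0.962) and Mccc2 (0.962), Itga6 to Coa7 (0.970), Tmem176a (0.961) and Farsb (0.958), and Cd44 to Arhgap5 (0.916), Slc39a6 (0.915) and Ap1g1 (0.896).

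The families and partners of the 8 genes were followed in the same fit. Other tetraspanins, the family of CD9 and CD81, split by gene: of 21 tested, 1 rose and 4 fell in Nestin+ relative to CD133+ cells, where 2.45% of all genes were called higher and 9.42% lower. Cd53 and Cd37, tetraspanins of immune cells, changed by -4.73 ± 0.71 and -3.25 ± 0.46 (log2, SE), Cd82 by -2.29 ± 0.34 and Tspan2 by -1.97 ± 0.35. Levels of Cd37 were near the filter outside CD133+ libraries, at 0.55 ± 0.548 CPM in Nestin+ and 0.841 ± 1.08 in CD133+Nestin+ against 14.1 ± 6.67 in CD133+ libraries. Tspan11 rose, at 12.9 ± 4.42 CPM in Nestin+ against 2.83 ± 1.59 in CD133+ libraries (SD, n = 3 each). The family's median difference was 0.03, and the 16 others did not pass, among them Tspan7 at 1.14 ± 0.52, whose adjusted p in limma was 0.22 without and 0.00453 with the block. Leaving out a library kept each of these 5 calls. In CD133+Nestin+ relative to CD133+ cells Cd37 and Cd53 were lower and Tspan11 higher, where 2.12% of all genes were called lower and 0.297% higher, and the fits without any 1 of the CD133+ libraries or of CD133+Nestin+ replicates 2 and 3 lost both Cd53 and Tspan11. Cd53 was also lost without Nestin+ replicate 2 and Tspan11 without CD133+Nestin+ replicate 1. In CD133+Nestin+ relative to Nestin+ cells no tetraspanin passed without a block, with 3 higher and 1 lower at an unadjusted p under 0.05 in limma, and Cd82 was higher with the block (adjusted p 0.0372). Of 7 tetraspanin partners, the interferon-induced membrane genes Ifitm1 (-3.26 ± 0.38), Ifitm3 (-1.69 ± 0.36) and Ifitm2 (-1.29 ± 0.35) fell in Nestin+ relative to CD133+ cells, and without CD133+ replicate 3 only Ifitm1 was called. Ifitm2 was also lost without CD133+Nestin+ replicate 3, Nestin+ replicate 2 or 3 or CD133+ replicate 1. In CD133+Nestin+ relative to CD133+ cells Ifitm1 was lower, at -1.92 ± 0.38 (adjusted p 0.0228 in limma). That call was lost without CD133+ replicate 1 or 3 or CD133+Nestin+ replicate 1 or 3. Ifitm2 was lower there with the block (adjusted p 0.0496 in limma, against 0.352 without). In CD133+Nestin+ relative to Nestin+ cells Ifitm3 was higher, at 1.59 ± 0.36 (adjusted p 0.0383 in limma), against 2.87% of all genes. With 1 library left out, it was called only without CD133+Nestin+ replicate 2 or CD133+ replicate 2.

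Of 14 other integrin subunits, 2 rose and 5 fell in Nestin+ relative to CD133+ cells, where 2.45% of all genes were called higher and 9.42% lower. With the sort number as a block 3 were higher and 6 lower, against 6.06% and 13.1%, the additions being Itgb5 (adjusted p 0.0385 in limma) and Itga1 (0.0204). Itga7, a laminin-binding alpha subunit like Itga6, averaged 85.3 ± 18.3 CPM in Nestin+ libraries and 21.6 ± 9.42 CPM in CD133+ libraries, a change of 2.02 ± 0.40, and Itgav changed by 1.38 ± 0.36. The call of Itgav was lost without any 1 of the Nestin+ libraries or of CD133+ replicates 2 and 3. Itgb2, the beta subunit of leukocyte integrins, changed by -3.21 ± 0.61, Itga11 by -1.74 ± 0.36 and Itgal, an alpha partner of Itgb2, by -1.48 ± 0.32. Itga11 averaged 0.324 ± 0.0712 CPM in Nestin+ against 3.56 ± 1.36 in CD133+ libraries, and Itgal 0.141 ± 0.105 against 2.25 ± 0.839. Both passed the filter on low values only through libraries outside Nestin+, which favoured a call as lower in advance. The lower integrins numbered 3 without CD133+ replicate 2 or 3 and 2 without Nestin+ replicate 3. The list's median was -0.66, and the microglia and macrophage markers fell in the same comparison as the leukocyte subunits. Itgb2 was the 1 integrin lower in CD133+Nestin+ than in CD133+ cells, at -3.27 ± 0.61, against 2.12% of all genes. That call was lost without CD133+Nestin+ replicate 3 or CD133+ replicate 1 or 3. With the block Itga1 was lower there too (adjusted p 0.0183 in limma) and Itga7 higher (0.0476), against 3.69% of all genes lower and 1.12% higher. Itgb4, the other beta partner of Itga6, was higher in CD133+Nestin+ than in Nestin+ cells, at 6.09 ± 2.52 against 1.45 ± 0.59 CPM with an adjusted p of 0.0479, and of the 9 fits without 1 library that call was kept only without CD133+Nestin+ replicate 1. Of all genes 2.87% were called higher in this comparison. With the block Itga2b was also higher (0.0143) and Itga7 and Itgav lower (0.0162 and 0.0214) in CD133+Nestin+ than in Nestin+ cells. Of all genes 4.97% were higher and 1.12% lower with the block.

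Laminins, the ligands of ITGA6 with ITGB1, fell in 5 of 9 cases in Nestin+ relative to CD133+ cells and in 5 of 9 in CD133+Nestin+ relative to CD133+ cells, with medians of -1.14 and -1.70. Of all genes, 9.42% were called lower in the first and 2.12% in the second of these comparisons. Lamb1 stood at 7.92 ± 2.89 CPM in CD133+Nestin+, 2.11 ± 1.04 in Nestin+ and 92.7 ± 50.9 in CD133+ libraries. Lamc3 changed by -2.93 ± 0.39 and Lama2 by -1.84 ± 0.31 in Nestin+ cells, and by -2.32 ± 0.39 and -1.97 ± 0.31 in CD133+Nestin+ cells, where both calls were lost without CD133+ replicate 3. Lamc3 averaged 0.193 ± 0.0812 CPM in Nestin+, 0.972 ± 0.868 in CD133+Nestin+ and 8.38 ± 2.96 in CD133+ libraries. It passed the filter on low values only through libraries outside Nestin+, which favoured a call as lower there. Without CD133+ replicate 3, 3 laminins were lower in Nestin+ and 1 in CD133+Nestin+ cells, without Nestin+ replicate 3, 3 in Nestin+ cells, and without CD133+ replicate 2, 3 in CD133+Nestin+ cells. Endothelial and mural markers, which mark the cells that make vessel basement membrane, were lower in the same comparisons, and their part was not tested. Of 15 adaptors that link integrins to actin, Fermt3, the kindlin of blood cells, and Tln2, a talin, were lower in both comparisons, by -3.71 ± 0.46 and -1.27 ± 0.31 in Nestin+ cells and by -3.41 ± 0.46 and -1.68 ± 0.31 in CD133+Nestin+ cells. Of all genes 9.42% were lower in Nestin+ and 2.12% in CD133+Nestin+ cells. With the block 4 adaptors were lower in each, against 13.1% and 3.69% of all genes, with Actn4 (adjusted p 0.0106 in limma) and Pxn (0.0452) added in Nestin+ cells and Actn4 (0.0255) and Parvb (0.033) in CD133+Nestin+ cells. Without CD133+ replicate 1, 2 or 3 Tln2 lost both calls. In Nestin+ cells it was also lost without Nestin+ replicate 1 or 3, and in CD133+Nestin+ cells without CD133+Nestin+ replicate 3, while 4 adaptors were lower in Nestin+ cells without CD133+Nestin+ replicate 2.

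**Figure D4:**
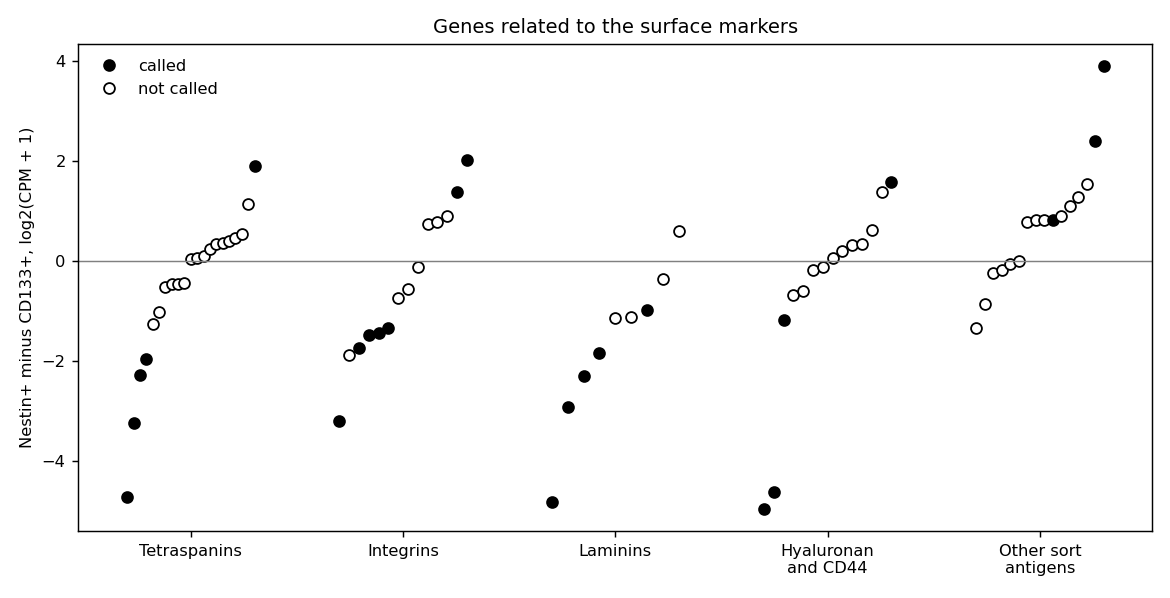
Difference Nestin+ minus CD133+ on the log2(CPM + 1) scale for tested genes of 5 lists related to the surface markers, each gene a point, ordered by value within its list. Filled points have an adjusted p under 0.05 in limma without a block. Called tetraspanins, integrins and genes linked to hyaluronan or CD44 lie on both sides of 0. Called laminins lie below 0 and called antigens of other sorts above 0.

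Around CD44, 1 of 14 genes linked to hyaluronan or to CD44 itself rose and 3 fell in Nestin+ relative to CD133+ cells. Of all genes 2.45% were called higher and 9.42% lower there. The higher genes numbered 2 with the block, which added Hyal2 (adjusted p 0.0468 in limma), and 2 after median centring, after quantile normalization and without CD133+Nestin+ replicate 2. Vcan, the hyaluronan-binding proteoglycan versican, changed by 1.59 ± 0.44, a call lost without any 1 of the CD133+ libraries or of Nestin+ replicates 1 and 2. Stab1, a scavenger receptor on macrophages and some vessels, changed by -4.97 ± 0.41. Spp1, the CD44 ligand osteopontin, changed by -4.63 ± 1.03 and Msn, which ties CD44 to actin, by -1.19 ± 0.23. Spp1 lost its call without Nestin+ replicate 3 or CD133+ replicate 3. The list's median was -0.04. In CD133+Nestin+ relative to CD133+ cells Stab1 was the 1 gene of the list called, as lower, against 2.12% of all genes. Leaving out 1 library gave 1 to 2 lower genes there. In CD133+Nestin+ relative to Nestin+ cells Ezr, which like Msn ties CD44 to actin, was higher with the block (adjusted p 0.0451 in limma, against 0.121 without). A further list held adhesion genes related to Vcam1 together with genes of the NF-kappa-B pathway, and 9 of its genes were tested. Icam1 (-3.45 ± 0.45) and Bsg (-1.79 ± 0.36), a gene of brain vessels and other cells, fell in Nestin+ relative to CD133+ cells. Both were also lower in CD133+Nestin+ than in CD133+ cells, at -2.97 ± 0.45 and -1.67 ± 0.36. Of all genes 9.42% were called lower in the first of these comparisons and 2.12% in the second. With the block 4 of the 9 were lower in each, against 13.1% and 3.69% of all genes. Nfkbia, an inhibitor of NF-kappa-B, had an adjusted p of 0.00421 in limma with the block and 0.0562 without it in Nestin+ cells, and of 0.0213 and 0.202 in CD133+Nestin+ cells. The block also added Nfkb2 (0.04) in Nestin+ cells and Tnfaip3 (0.0437) in CD133+Nestin+ cells. The call of Bsg in CD133+Nestin+ cells was lost without any 1 of the CD133+ libraries, CD133+Nestin+ replicates 2 and 3 or Nestin+ replicate 3. Without CD133+Nestin+ replicate 1, 4 genes of this list were lower in Nestin+ cells. Of the relatives of prominin and receptors of CD24, 1 was in the table and 0 passed the filter on low values.

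Among 16 other antigens used to sort neural cells, 3 rose in Nestin+ relative to CD133+ cells, against 2.45% of all genes called higher, with a median of 0.83. With the sort number as a block 7 were higher, against 6.06% of all genes, and 1 was lower, against 13.1%. The additions were Slc1a3, Ncam1 (adjusted p 0.0123 in limma), L1cam (0.0222) and Alcam (0.0269) as higher and Cd36 (0.027) as lower. None of the 16 was lower without a block (1 at an unadjusted p under 0.05 in limma), but 2 were without CD133+Nestin+ replicate 2 and 1 without CD133+Nestin+ replicate 3. Pdgfra, the growth factor receptor that sorts oligodendrocyte precursors, stood at 73.6 ± 81.7 CPM in CD133+Nestin+, 399 ± 138 in Nestin+ and 25.3 ± 7.44 in CD133+ libraries. Cspg4 (NG2), also a marker of these precursors, changed by 2.40 ± 0.52, and Cd47 by 0.83 ± 0.24 with an adjusted p of 0.0497, a call kept only without CD133+Nestin+ replicate 1 or 2 among the 9 fits that left out 1 library. Without CD133+ replicate 2, Pdgfra alone was called, and Cspg4 was lost without Nestin+ replicate 2 too. In CD133+Nestin+ relative to Nestin+ cells Pdgfra (-2.96 ± 0.63) and Cspg4 (-2.30 ± 0.52) were lower, and both calls were lost without any 1 of the Nestin+ libraries or of CD133+Nestin+ replicates 2 and 3, that of Pdgfra also without CD133+ replicate 3 and that of Cspg4 without CD133+ replicate 1. Of all genes 0.254% were called lower there, and with the block, where 1.12% were, Alcam was lower too (adjusted p 0.0209 in limma) and Cd36 higher (0.0269). The sums of oligodendrocyte precursor markers, which include both genes, were 113 to 451 CPM in CD133+Nestin+ and 577 to 1067 in Nestin+ libraries. Slc1a3 (GLAST), the glutamate transporter that sorts radial glia and astrocytes, averaged 4604 ± 1335 CPM in Nestin+ libraries and 2038 ± 1073 CPM in CD133+ libraries, a difference of 1.29 ± 0.46 with an adjusted p of 0.106 in limma and 0.00276 with the block. Slc1a3, Tspan7 and the list members called with the block but not without it were chosen for mention after their values were seen.

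In the genome (GENCODE M21, GRCm38) Prom1 lies on chromosome 5 from 43993620 to 44102032, Cd24a on chromosome 10 from 43578284 to 43584265, Cd9 on chromosome 6 from 125460266 to 125494791 and Cd81 on chromosome 7 from 143052739 to 143067934. Cd44 lies on chromosome 2 from 102811141 to 102901665, Itga6 on chromosome 2 from 71745616 to 71858416, Itgb1 on chromosome 8 from 128685654 to 128733200 and Vcam1 on chromosome 3 from 116109949 to 116129688. Exons of a gene on the opposite strand share 424 bases with Prom1, 218 with Cd9, 104 with Cd81 and 61 with Vcam1, and the processed pseudogene Gm29397 matches Itga6 over 326 bases at 100% identity. The labels do not say whether counting used strand, and reads of these stretches could have been assigned to either gene.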

How the data were processed

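Per the labels' protocols, an Illumina HiSeq was used to sequence RNA libraries of 9 sorted samples. Per the submitters' processing notes the build was mm10 and the tools included STAR 2.5.3a, bcl2fastq, limma and Partek 8.0, whose roles are not stated. The deposited table held values normalized by the authors, whose unit was inferred from the values as CPM to which 0.0001 had been added. The steps between low values were 0.0286 to 0.0344 CPM per read, but only 43.1% to 56.3% were whole within 0.02 reads, so counts could not be rebuilt and no count model was used. A further deposited table holds, per the file headers, the authors' ratio, p-value and false discovery rate for every gene, and is quoted only as such. The ratios set Nestin+ over CD133+, Nestin+ over CD133+Nestin+ and CD133+ over CD133+Nestin+.

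A gene was kept where 3 or more libraries reached 1 CPM (16143 genes), and log2(CPM + 1) values, a scale that understates the change of low genes, were fitted with limma 3.58.1 in R 4.3.3, using 3 group means and trended, robust variances. A gene that is low in 1 population can pass this filter through the others alone, which favours a call as lower in that population. P-values were Benjamini-Hochberg adjusted over all genes kept and called under 0.05. The labels do not tie libraries to separate animals or cultures, and the p-values therefore reflect only how these samples vary, which may be technical. Prom1 and Nes follow the sort and were not tested. The procedure without a block was tested on simulated data with independent noise of the measured spread. In each comparison it recovered 7% of the genes changed by 1 (log2) and 64% to 68% of those changed by 2. At each size 100 of 16143 genes were changed, all averaging at least 10 CPM. The measured libraries had more called genes and a spread partly shared by sort number, so these rates need not hold for them. Between 1 and 3 unchanged genes were called.

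To see whether the sort numbers pair the samples, each library's deviation from its group mean was correlated across genes with that of the libraries of other groups. The r was 0.204 to 0.73 for the 9 pairs that share a number and -0.527 to 0.314 for the 18 that do not. Pairs of sort 1 had r of 0.582 to 0.73, and those of sorts 2 and 3 had 0.204 to 0.369. Of the 9 libraries 8 were closest to libraries of their own number. Nestin+ replicate 3 was closer to CD133+Nestin+ replicate 2 (0.314) than to replicate 3 (0.224). The labels do not name pairs, and the main fits did not use them. On the strength of the data the numbers served as pairs in the fits with the block, and the blocked value is given where it changes a call.

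All 8 genes, their lists and the cell type markers were chosen with earlier results of these data known. Named besides them were the 3 genes of highest r with each and, from each list of families and partners, up to 4 called members of smallest p per comparison. For cell type markers counts are given, and many called markers are not named. Genes named outside this rule are Tspan7, Slc1a3, list members called with the block but not without it and, in a few cases, a further called member. Positions and exon lengths are from GENCODE M21, in which 18219 of 18327 symbols were found, and promoter windows from RefSeq GRCm38.p6. Alternatives were a block for the sort number, quantile normalization, median centring, a filter at 5 CPM or none, a pseudocount of 0.1, the 6 libraries of a comparison alone, a prior without trend or robustness, and the omission of each library. Sorts 2 and 3 only, the block without CD133+Nestin+ replicate 2, and rescaling to the sum of the table's genes were added after seeing the data. Python 3.11.15 and matplotlib 3.10.9 made the figures.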

Additional observations from a re-analysis of the deposited data

How the results depend on the processing

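Cd24a stayed lower in Nestin+ than in CD133+ cells and was called under every alternative run. The number of the 7 surface marker genes called in that comparison, 1 without a block, was 4 with the replicate block, 4 with the block and CD133+Nestin+ replicate 2 left out, 2 after quantile normalization and 1 in each fit that left out 1 library. The call of Cd24a in CD133+Nestin+ versus Nestin+ cells is the least stable: 0 of the 7 genes were called with no filter, with median centring, with quantile normalization, with no trend or robust prior, with sorts 2 and 3 only and with rescaling to the sum of the table's genes, and 0 to 1 when 1 library was left out. Its adjusted p in limma ranged from 0.00407 to 0.167 over all alternatives, while its log2 change stayed between 1.23 and 1.38 when 1 library was left out. The replicate block changed no other call of the 7 genes.

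Over all genes, 1915 were called in Nestin+ versus CD133+ cells, 3094 with the replicate block, 4916 with the block and CD133+Nestin+ replicate 2 left out, and 1082 to 2763 when 1 library was left out. In CD133+Nestin+ versus CD133+ cells 390 were called, 776 with the block, 198 in the 6 libraries alone, 807 with the block and CD133+Nestin+ replicate 2 left out, and 131 to 470 when 1 library was left out. In CD133+Nestin+ versus Nestin+ cells 505 were called, 983 with the block, 1324 with the block and CD133+Nestin+ replicate 2 left out, and 172 to 664 when 1 library was left out. Median centring and quantile normalization moved the median of all genes in Nestin+ versus CD133+ from -0.02 to 0.12 and 0.13 (log2), with 587 and 696 genes higher and 1300 and 1370 lower, against 395 and 1520. Of the counts in gene families for that comparison, the lower integrins were 4 instead of 5 under each of the 3 other scalings. The lower laminins were 4 instead of 5 with median centring and quantile normalization, and the lower tetraspanin partners 2 instead of 3 with median centring. The higher genes linked to hyaluronan or CD44 were 2 instead of 1 with median centring and quantile normalization. The higher other antigens were 4 instead of 3 with rescaling and median centring. In CD133+Nestin+ versus CD133+ cells the lower integrins were 2 instead of 1 with median centring. In CD133+Nestin+ versus Nestin+ cells 1 tetraspanin instead of 0 was higher with rescaling and quantile normalization, 9 instead of 10 ependymal markers were higher with rescaling, and the call of Itgb4 was lost with quantile normalization and with rescaling.

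Differences that never passed changed sign in some fits, and the cause was not tested. In Nestin+ versus CD133+ cells, Cd44 was 0.02 after median centring and 0.02 after quantile normalization and lay between -0.40 and 0.38 in the fits that left out 1 library, where Itga6 lay between -0.06 and 0.40. In CD133+Nestin+ versus CD133+ cells, Cd24a ranged from -0.51 to 0.07 and Itgb1 from -0.03 to 0.36. In CD133+Nestin+ versus Nestin+ cells, Cd81 ranged from -0.33 to 0.29 and was -0.18 with the block and CD133+Nestin+ replicate 2 left out. With 3 libraries per group, a p that misses the threshold does not show that levels were alike, and the depth in reads is known only as the step of the low values.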
